A study of Mus musculus with 16 samples.

Results

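Bipolar cell identity genes are the 9 genes Cabp5, Isl1, Prkca, Vsx1, Scgn, Bhlhe23, Lhx4, Irx6 and Irx5, chosen by name as transcription factors and subtype markers of retinal bipolar cells outside the signalling cascade of the glutamate receptor mGluR6. All 9 were found by symbol among the 25905 genes of the table. The study sequenced retinal RNA from the right eyes of male C57BL/6 wild-type mice, aged 10 weeks by the labels, in 2 groups of 8 libraries, Flight and Ground Control. Flight mice lived on the International Space Station, and Ground Control mice on Earth in the same housing hardware and on the same diet. Flight mice were returned to Earth alive, and their eyes were collected after the return. The paper gives the labelled age for the mice that were flown, before their weeks on the station. Flight mice were therefore older than the label when their retinas were taken. Each library was made from 100 ng of total RNA of whole retina, so fewer cells of a type and less RNA per cell cannot be told apart.

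The value used for each gene is the authors' mean over all 16 libraries of counts divided by size factors, named here the mean normalized count. It pools Flight with Ground Control and carries no SD. The columns of counts per library are named by laboratory codes that match no label, so values per mouse, the depth per library and the comparison of Flight with Ground Control are not analysed here. The differences below are between genes, and no spread between mice can be set beside them.

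Bipolar cells are the interneurons that carry signals from photoreceptors to amacrine and ganglion cells. Rod bipolar cells and ON cone bipolar cells depolarize when light falls on the photoreceptors, and OFF cone bipolar cells depolarize in the dark. The subtypes are told apart by their calcium-binding proteins, kinases and transcription factors, several of which are also needed to form or maintain the subtype.

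Among the proteins that act outside the nucleus, Prkca, the alpha isoform of protein kinase C and the classical marker of rod bipolar cells, had a mean normalized count of 4239. Cabp5, a calmodulin-like calcium-binding protein of rod bipolar cells and some cone bipolar types, had 675. Scgn, which encodes secretagogin, an EF-hand calcium-binding protein of cone bipolar types, had 402. Prkca was thus the gene with the most reads of the 9.

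Among the transcription factors, the LIM-homeodomain gene Isl1, which is expressed in ON bipolar cells and also in ganglion and starburst amacrine cells, had a mean normalized count of 407. Vsx1, a paired-type homeodomain factor of cone bipolar cells, had 283. Lhx4, another LIM-homeodomain factor, had 208. These 3 homeobox genes were followed by Bhlhe23, a basic helix-loop-helix factor needed for rod bipolar cells, at 193. The Iroquois homeobox genes Irx6 and Irx5, factors of OFF cone bipolar types, had 137 and 64.3. Every one of the 6 transcription factors but Isl1 was below the 3 other genes, and Isl1 lay between Cabp5 and Scgn.

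A longer transcript gives more reads at the same number of molecules, so levels between genes were compared per kilobase, dividing the mean normalized count by the median length of the gene's coding transcripts in GENCODE M21. On this scale the level of Prkca was 794 per kilobase, with a transcript length of 5337 bases. Cabp5 followed at 445 and Scgn at 427. Isl1 was at 219. The 4 genes above were all over the median level of 88.4 per kilobase of the 11271 genes with a mean normalized count of at least 10, and the other 5 were under it. Bhlhe23 was at 76.6, Vsx1 at 74.6 and Lhx4 at 64.6. Irx6 was at 44.2 and Irx5, the lowest of the 9, at 25.7.

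Prkca was 30.9-fold above Irx5 per kilobase, a ratio that was 19.2 with the length of the counted transcript and 50.6 with the coding sequence length. The sizes of the steps between neighbours also depended on the length. The step from Isl1 down to Bhlhe23 was 2.86-fold with the median transcript length and 1.35-fold with the coding sequence length. With the longest coding transcript and with the counted transcript it was 2.11-fold. The gap between the 4 higher and the 5 lower genes thus varied in size with the length, and was smallest with the coding sequence length. Cabp5 was 1.04-fold above Scgn with the median transcript length, and 2.61-fold, the widest step, with the coding sequence length. Bhlhe23 was above Vsx1 by 1.03-fold and 1.11-fold in the same order. Of the summed level of the 9 genes, Prkca made up 36.6%, while Irx5 and Irx6 made up 1.18% and 2.04%.

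**Figure D1:**
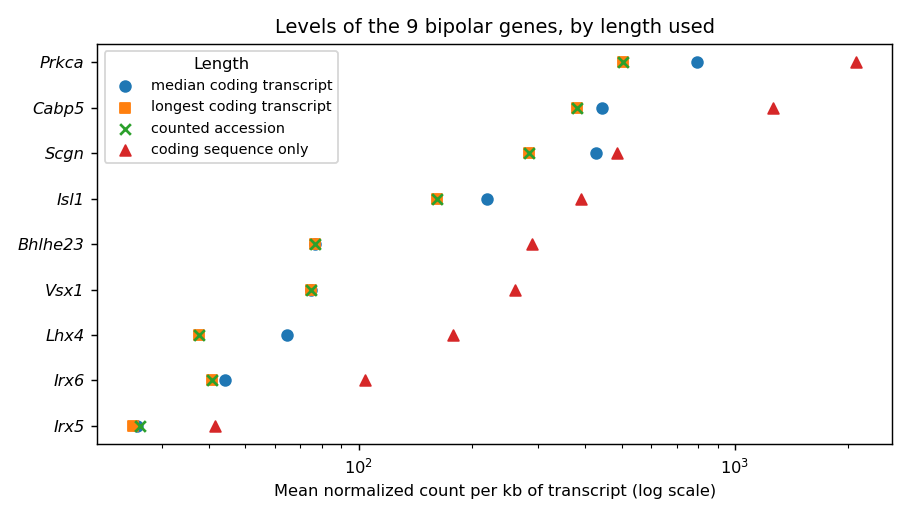
Level of each of the 9 bipolar genes, as the mean normalized count over all libraries per kilobase on a log axis, with 1 symbol for each length that it was divided by. Prkca is highest at 794 and Irx5 lowest at 25.7 with the median coding transcript length, and with the longest coding transcript Irx6 at 40.7 passes Lhx4 at 37.8.

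The length used changed the levels more than the order. With the coding sequence length 8 of the 9 levels moved by over 1.5 times, all of them upward, Scgn being the exception. The length of a counted transcript is here always that of the GENCODE M21 transcript paired with it. For Prkca this paired transcript is longer than the median, with 8409 bases in 17 exons, and the level of Prkca was 504 per kilobase of it. Lhx4, whose paired transcript has 5514 bases in 6 exons, went from 64.6 to 37.8 per kilobase, below Irx6 at 40.7. Scgn went from 427 to 284 per kilobase. With the counted transcript 35 of the 36 pairs of genes kept their order.

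In rank, the level of Prkca was above that of 92.7% of the 11271 genes with a mean normalized count of at least 10. Cabp5 was above 86.0%, Scgn above 85.4% and Isl1 above 73.4%. Bhlhe23, Vsx1 and Lhx4 were above 46.3%, 45.6% and 41.5%. Irx6 was above 32.6% and Irx5 above 22.4% of these genes, and above 53.1% and 46.0% of all genes with any reads. The median member was Bhlhe23, close to the middle of expressed genes. These ranks rest on the median transcript length and were not computed with the other lengths.

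Each of the 9 genes was counted as 1 RefSeq transcript. This bears on their levels, because the authors' table gives low values to genes that were counted as several transcripts. Of 17304 genes with 1 counted transcript, 40.1% had a mean normalized count under 10. Of 2179 genes with 2 counted transcripts the share was 70.4%, and of 1023 genes with 3 or more it was 75.3%. The median mean normalized count was 46.8 with 1 counted transcript, 1.43 with 2 and 1.39 with 3 or more. The cause of this difference was not tested. None of the 9 bipolar genes falls in the lower groups.

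**Figure D2:**
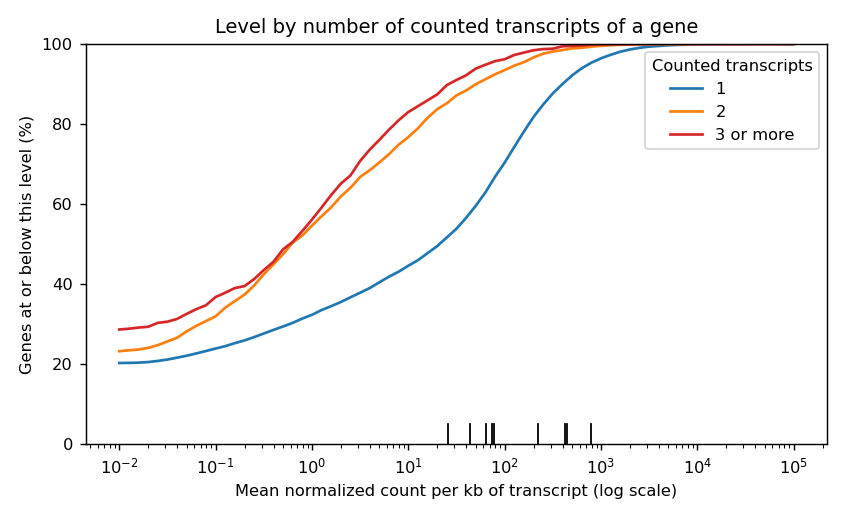
Share of genes at or below each level, in mean normalized counts per kilobase on a log axis, for genes counted by the authors as 1, 2 or 3 or more transcripts. Black ticks at the bottom mark the 9 bipolar genes, all with 1 counted transcript, between 25.7 and 794.

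The same pattern ran through further bipolar genes, a list of 22 of which 21 had a level. Its 16 genes with 1 counted transcript had a median level of 122 per kilobase, against 76.6 for the 9 genes. The most abundant was Pcp4, a calmodulin-binding peptide, at 1508. Otx2, a homeodomain factor needed for bipolar and photoreceptor fates, was at 612. The other 5 genes, Grik1, Nfia, Gsg1, Cabp2 and Pcp2, were counted as several transcripts and had levels between 0.110 and 16.7. Pcp2, a classical marker of rod bipolar cells and some cone bipolar types, was at 16.7 per kilobase beside the 794 of Prkca. It was counted as 3 transcripts, so these values are not compared as expression here. What sets them apart was not tested.

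The mGluR6 cascade, through which ON bipolar cells sense glutamate, had a median level of 223 per kilobase over its 8 genes with 1 counted transcript. Its lowest gene was Nyx, the proteoglycan nyctalopin, at 57.5, between Lhx4 and Irx6. Isl1 lay just under Gpr179, the orphan receptor of this cascade, at 222, and Prkca lay just over Gnb3, a G protein beta subunit, at 769. These places are given for the median transcript length only. With the counted transcript Prkca was at 504, Isl1 at 162 and Lhx4 at 37.8, and the cascade genes were not compared on that length. Gnao1 and Trpm1, the 2 cascade genes with more than 1 counted transcript, were at 1724 and 1234, so several counted transcripts did not always go with a low value.

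Markers of the other cells of the retina set the scale for the 9 genes. Over genes with 1 counted transcript, the median level was 6812 per kilobase for 7 rod genes and 1261 for 6 cone genes. It was 1109 for 6 Müller glia genes, with Glul, glutamine synthetase, at 25632. It was 752 for 5 amacrine genes and 495 for 8 ganglion cell genes. All 9 bipolar genes were thus below the lowest rod gene with 1 counted transcript, Nr2e3 at 1664. The lowest such cone gene, Cngb3, was at 50.4, within the range of the 9 genes. Horizontal cell genes had a median of 39.7 with the median transcript length, and ran from 13.4 for Onecut2 to 861 for Prox1. This median is the level of Lhx1, which was at 12.4 with the counted transcript, against 40.7 for Irx6. Prox1 was above all 9 bipolar genes. The next highest horizontal cell gene, Calb1 at 120, is also in the list of further bipolar genes. Whether Prox1 marks horizontal cells only was not tested. Microglia genes had a median of 28.2, near Irx5, and the highest of them was Csf1r at 37.7, under 8 of the 9 bipolar genes. Endothelial genes had a median of 41.0.

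**Figure D3:**
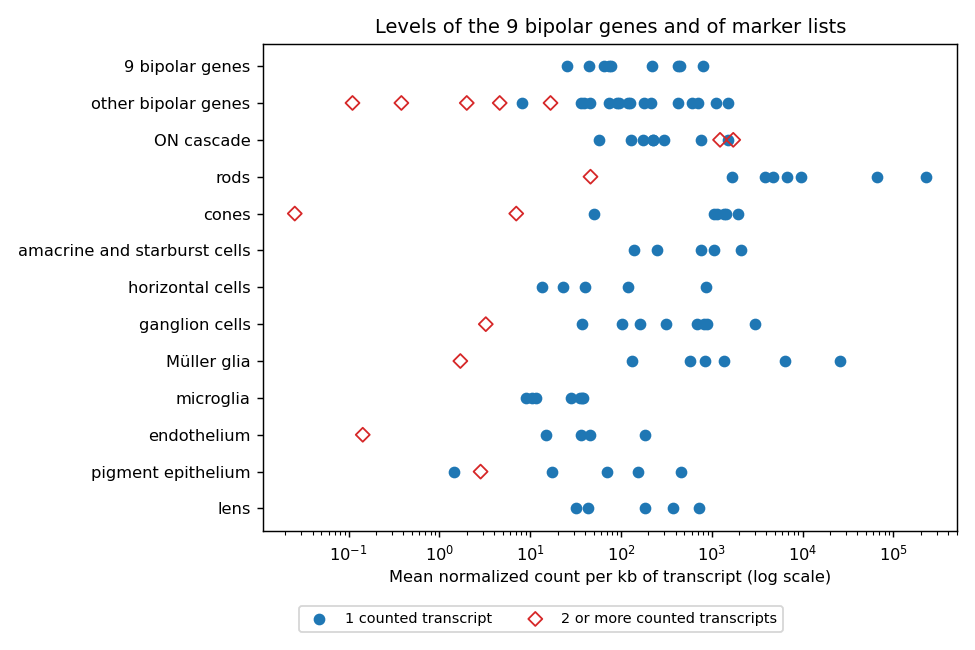
Level of each gene in mean normalized counts per kilobase on a log axis, with 1 row for the 9 bipolar genes and 1 for each marker list. Filled circles are genes with 1 counted transcript and open diamonds genes with 2 or more, and Meis2, listed at 0, is not drawn. The 9 bipolar genes run from 25.7 to 794, below the rod genes with 1 counted transcript, of which Nr2e3 at 1664 is the lowest. The rod gene Nrl, with 2 counted transcripts, is drawn at 46.1, within the range of the 9 genes.

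Markers of tissues next to the retina overlapped the 9 genes in level. The 5 pigment epithelium genes with 1 counted transcript had a median of 69.6 per kilobase, from 1.43 for Best1, a chloride channel, over 69.6 for Rpe65, the retinoid isomerase of that layer, to 455 for Ttr, transthyretin. The 5 lens genes had a median of 184, from 32.1 for Bfsp2, a lens filament protein, to 716 for the crystallin Cryaa. Some of these genes, crystallins among them, are also expressed in the retina. Whether other tissue was carried over, and its part in the levels of the 9 genes, was not tested.

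Among gene families, chosen after the levels were seen, the Iroquois pair stood first. Irx6 and Irx5 had the highest mean normalized counts of the 6 Iroquois genes, the others running from 12.5 for Irx1 to 49.0 for Irx4. Per kilobase of the counted transcript the order was again Irx6 at 40.7 and Irx5 at 26.2, followed by Irx4 at 18.9. With the median transcript length Irx2 came first at 64.1, since its median coding transcript in GENCODE M21 is short. Irx5 and Irx6 lie on chromosome 8, as does Irx3.

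Other families are given with the median transcript length unless stated. Of the conventional protein kinases C, Prkca at 794 per kilobase was above Prkcb at 493. With the counted transcript Prkca and Prkcb were nearer to each other, at 504 and 463. Of the LIM-homeodomain genes with 1 counted transcript, Lhx2, a factor of progenitors and Müller glia, was at 488, above Isl1 at 219. With the counted transcript Lhx2 and Isl1 were at 202 and 162. Lhx4 at 64.6 was above Lhx3, its nearest relative, at 30.6, and Isl1 was above Isl2 at 45.7. With the counted transcript Lhx4 and Lhx3 were nearer to each other, at 37.8 and 30.3. Isl1 and Isl2 were then at 162 and 30.7. Cabp5 was at 445, between Cabp4, a regulator of photoreceptor calcium channels, at 951 and Cabp7 at 0.740, and below Cabp1 at 481. Cabp2, another bipolar calcium-binding protein, was at 4.61 with 3 counted transcripts. Scgn was above Calb1, calbindin, at 120 and below Calb2, calretinin, at 1248. Bhlhe23 was close to Bhlhe22, a factor of amacrine and OFF bipolar cells, at 94.3.

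Genes that overlap in the genome can share reads or lose them in counting. In GENCODE M21, 4 of the 9 genes overlap another gene. Prkca overlaps 4 genes and Scgn and Irx6 overlap 1 each, all on the opposite strand, which a stranded library keeps apart where strand is used in counting. Bhlhe23, which has 1 exon, overlaps Gm14343, a noncoding transcript on the same strand, so its level is uncertain in this respect.

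Promoter windows of 300 bases, from 250 before to 50 after the annotated start, were present in the RefSeq table of GRCm38.p6 for 7 of the 9 genes. The letters TAATCC, on either strand, are the core that homeodomain factors of the OTX class such as Otx2 prefer, and they were chosen after the sequences were seen. They were found in 2 of the 7 windows, those of Cabp5 and Isl1, and in 7.06% of all 32851 windows of that length. The E-box letters CANNTG, on either strand, bound by basic helix-loop-helix factors, were in 4 of the 7 windows and in 72.3% of all. A match describes the letters only. Cabp5 holds TAATCC at 2 places. The windows of these 2 genes and of Prkca, the gene with the highest level, are shown to give the sequence behind these counts, with TAATCC in capitals.

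Cabp5, GRCm38.p6, chr7:13397905-13398204, plus strand:
Cabp5: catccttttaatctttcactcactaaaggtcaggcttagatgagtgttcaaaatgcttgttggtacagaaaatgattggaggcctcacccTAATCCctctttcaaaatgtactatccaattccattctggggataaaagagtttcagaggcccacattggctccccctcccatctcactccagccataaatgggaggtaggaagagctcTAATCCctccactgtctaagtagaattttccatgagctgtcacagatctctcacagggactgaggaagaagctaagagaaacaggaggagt
Isl1, GRCm38.p6, chr13:116309639-116309938, minus strand:
Isl1: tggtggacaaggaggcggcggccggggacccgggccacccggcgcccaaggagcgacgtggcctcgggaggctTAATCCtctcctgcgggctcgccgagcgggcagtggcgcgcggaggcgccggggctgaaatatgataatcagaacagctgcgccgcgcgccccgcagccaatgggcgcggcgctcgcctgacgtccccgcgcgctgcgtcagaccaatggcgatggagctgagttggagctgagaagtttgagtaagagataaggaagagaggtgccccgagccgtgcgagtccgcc
Prkca, GRCm38.p6, chr11:108343839-108344138, minus strand:
Prkca: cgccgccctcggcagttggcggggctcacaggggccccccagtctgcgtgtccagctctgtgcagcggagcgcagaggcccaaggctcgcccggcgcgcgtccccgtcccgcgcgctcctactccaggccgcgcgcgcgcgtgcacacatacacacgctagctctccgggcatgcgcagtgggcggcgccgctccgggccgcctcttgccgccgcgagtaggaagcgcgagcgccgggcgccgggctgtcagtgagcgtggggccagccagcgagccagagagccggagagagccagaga

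The windows also differed in base composition. That of Prkca had a GC content of 75.3% and that of Isl1 69.0%, while that of Cabp5 had 44.7%, against a median of 52.7% over all windows. The windows of Vsx1 and Scgn were nearer to that median, at 55.7% and 54.7%.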

How the data were processed

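Retinal RNA of 8 Flight and 8 Ground Control mice was sequenced. Upstream, the authors used Trimmomatic for trimming, TopHat2 for mapping against a mouse build that precedes GRCm38, HTSeq for counting and DESeq2 1.22.2 in R 3.5.1 for their group comparison. The signal used is the deposited mean over all libraries of counts divided by size factors, computed by the authors. The 32 columns of counts per library in 2 tables name no labelled sample and were not used, so the planned quasi-likelihood test and its alternatives were not run. Columns of the authors' comparison (fold changes, errors, statistics and p-values) and a table of genes selected by it were not used. Accessions and symbols of counted transcripts were read from the count table.

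Transcript and coding lengths came from GENCODE M21, matched by symbol for 20840 genes and by an older symbol for 2240, and 20506 genes had a coding length. The length of a counted transcript was that of the longest GENCODE M21 transcript paired with it, without regard to its version. GRCm38 positions were used only for the reference itself. The rule for named genes took the 9 members and, per list, the highest and lowest genes and those nearest a member in level, of which a part is printed and some are not reported here. Others were chosen after their values were seen. Members and lists were chosen with earlier results of these data known. The division by length and the ranking were run on simulated counts drawn with the same median transcript lengths. That run could not test the choice of length or the low values of genes with several counted transcripts. Python 3.11.15, numpy 2.4.6, pandas 2.3.3 and matplotlib 3.10.9 were used.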

Additional observations from a re-analysis of the deposited data

How the results depend on the processing

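With the coding sequence length in place of the transcript length the median level of the 9 genes was 289 per kilobase, against 76.6, since the divisor is shorter. It moved 8 of the 9 levels by over 1.5 times and left all 36 pairs of genes in the same order. With the longest coding transcript, and with the length of the counted accession (chosen after seeing the data), the median stayed at 76.6 and 35 pairs kept their order. These lengths are the same for every one of the 9 genes but Irx5, so they are nearly the same alternative. The median gene, Bhlhe23, has 1 coding transcript, so its own level could not change between these lengths. The median percentile was 46.3 among genes with a mean normalized count of at least 10, 62.6 among genes with any reads and 43.7 among genes with 1 counted transcript, the last chosen after seeing the data. Among genes with any reads the percentiles of Irx6 and Irx5 moved by over 1.5 times. All percentiles used the median transcript length, so their dependence on the length is not known here. No paired analysis was possible because the columns of counts carry no replicate number or group. For the same reason the alternatives planned for Flight against Ground Control (another normalization, DESeq2, another filter, an adjusted p-value of 0.05 and leaving out each library) were not run. The spread between mice is not known here, so small steps between genes have no error to be read against.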
